A study of Mus musculus with 8 samples.

Results

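The Bcl2 family controls whether the outer membrane of mitochondria is breached and cytochrome c is released. RNA and m6A of 10 of its genes were described in C2C12 cells, an immortalized line of mouse myoblasts. The 10 genes were taken by name as a list, and all 10 were among the 27179 genes of the deposited expression table and passed the filter on low values. All 10 also had a peak in at least 1 of the 4 m6A peak lists, which held 9153 genes in all. Cells of the growth medium (GM) samples had 10% fetal bovine serum and covered about 50% of the dish. The 3d DM samples spent 3 days in medium with 2% horse serum after a switch at a confluence over 90%, so serum, cell density and time differed together. In both states there were 2 input libraries, which gave the RNA values, and 2 libraries precipitated with an antibody against m6A (MeRIP-seq), each compared with its own input. The comparison asked how RNA and m6A differ between dividing and differentiating myoblasts.

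Family members fall into 3 groups by role. Anti-apoptotic members hold the others in check, the effectors Bax and Bak1 form the pores in the outer membrane, and the BH3-only proteins carry stress signals to both. When myoblasts differentiate, a part of the cells dies, and members of this family are known to affect their survival. m6A is a methyl mark on adenosines of messenger RNA that is laid down mainly at the DRACH sequence, which reads A, G or T, then A or G, then the methylated A, then C, and then A, C or T.

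The states were as labelled. *Ckm* (creatine kinase of muscle) had values of 109.9 and 17.1 in GM against 1740.3 and 1996.3 in 3d DM, and *Mki67*, a marker of dividing cells, had 3586.0 and 3658.9 in GM against 446.3 and 760.4 in 3d DM. *Myog* (1007.8 and 220.8 in GM, 5392.0 and 11502.3 in 3d DM), *Des* (12764.4 and 5944.9 in GM, 21225.3 and 23528.2 in 3d DM) and *Myod1* (1712.7 and 1129.0 in GM, 1016.2 and 1645.4 in 3d DM), all muscle genes, were present in every library. The summed level of 5 differentiation markers was 4517.5 in GM replicate 1 and 1051.9 in GM replicate 2, so the GM libraries differed from each other in that program. Their part in the results was not tested. Summed markers of endothelial, epithelial and fat cells were between 0 and 5.33, and those of leukocytes between 11.5 and 26.4, most of it *Cd68*. One entry of the table, Entrez ID 100861531, took 24.4% and 33.2% of the column total in GM and 41.3% and 25.6% in 3d DM, which lowers or raises all other values of a library together. Over the 11406 tested genes the median log2 difference, GM minus 3d DM, was 0.22 as deposited and 0.02 after rescaling each library by the median of its ratios to all libraries. Both scalings are therefore given below.

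The sites below show what lies inside the m6A peaks. For each of 7 peaks, 29 bases of the messenger are given 5′ to 3′ around the DRACH match nearest the middle of the stretch common to all lists that held the peak, taking a match that starts with GGAC where there was one, with the match in capitals. The matches are a description of the sequence and not mapped methylation sites. Coordinates are on mm10, with transcripts from GENCODE release M21.
Bcl2, 5′ UTR, chr1:106713020-106713048, minus strand: aagtgttcggtgTAACTaaagacacccct
Bcl2l1, coding sequence, chr2:152829625-152829653, minus strand: acataaccccagGGACCgcgtatcagagc
Bcl2l2, 3′ UTR, chr14:54885614-54885642, plus strand: tggatggtcacgGAACAgagaaaggcagg
Mcl1, 3′ UTR, chr3:95660894-95660922, plus strand: atttatgaaggtGGACTtgaagctgccca
Bcl2l11, 3′ UTR, chr2:128158543-128158571, plus strand: tgttgtgaatgtAAACAagggagggcttt
Bbc3, 3′ UTR, chr7:16317413-16317441, plus strand: tgatggagatacGGACTtggggggaccct
Bid, 3′ UTR, chr6:120893850-120893878, minus strand: acccagcctagtGGACActgaagtgctca

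RNA levels are given first, in the deposited normalized values, with both GM libraries before both 3d DM libraries. Of the 10 genes, 3 had both GM values above both 3d DM values (*Bax*, *Bak1* and *Bid*), where 37.0% of all tested genes did, and 2 had both 3d DM values above both GM values (*Bcl2l1* and *Bcl2l2*), where 16.8% did. With the values as deposited, none of the 10 passed an adjusted p of 0.05 in limma. Among all tested genes 9.96% passed with higher values in GM and 7.01% with higher values in 3d DM. An unadjusted limma p under 0.05 was reached by 2 of the 10 genes and by 2987 of the 11406 tested genes. After the rescaling, 3 passed: *Bax* and *Bak1*, higher in GM, and *Bcl2l2*, higher in 3d DM. The share of all genes that passed was then 11.6% for GM and 11.7% for 3d DM. In bulk RNA, fewer cells of a kind and less RNA per cell cannot be told apart.

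**Figure D1:**
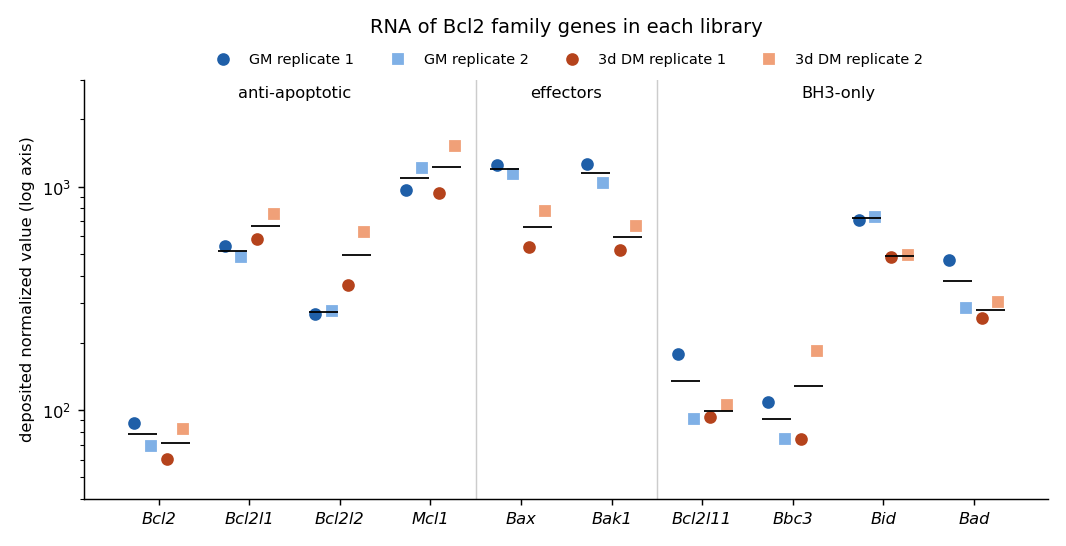
Deposited normalized values (log axis) of the 10 Bcl2 family genes in each of the 4 input libraries, with black lines for the mean of the 2 libraries of a state. Both GM points lie above both 3d DM points for Bax, Bak1 and Bid, and below them for Bcl2l1 and Bcl2l2.

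Among the anti-apoptotic genes, *Bcl2l2* stood lower in GM. It encodes Bcl-w, lies at chr14:54883377-54888234 on the plus strand (Entrez 12050), and had values of 269.0 and 278.0 in GM against 364.3 and 627.9 in 3d DM. Both 3d DM libraries were above both GM libraries, with 3d DM replicate 2 far above 3d DM replicate 1. The log2 difference, GM minus 3d DM, was -0.80 with an SE of 0.45 as deposited (limma adjusted p = 0.255). After the rescaling it was -1.01 with an SE of 0.21 (limma adjusted p = 0.022). As deposited the difference was -0.41 without 3d DM replicate 2 and -1.20 without 3d DM replicate 1, and rescaled it was -0.87 and -1.16, in no case past the threshold. Part of its exons, 594 bases or 13.3%, is shared on the same strand with Gm20521, a model that joins *Bcl2l2* to its neighbour *Pabpn1*, and how the counting split such reads is not given in the sources used here.

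*Bcl2l1* encodes Bcl-xL, which binds BH3-only proteins and effectors (Entrez 12048, chr2:152780668-152831728, minus strand). Its values were 540.3 and 485.7 in GM against 584.0 and 754.7 in 3d DM, so the states did not overlap. The log2 difference was -0.37 with an SE of 0.44 (limma adjusted p = 0.677) and, after the rescaling, -0.58 with an SE of 0.17 (limma adjusted p = 0.0576), past the threshold in neither case. With the rescaled values it did pass in limma with the replicate block (adjusted p = 0.045) but not without the trend (adjusted p = 0.0973). With the block 3604 of the 11406 tested genes passed, against 2665 without it. With a rescaled library left out, the log2 difference of *Bcl2l1* ran from -0.64 to -0.52.

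*Mcl1* encodes a short-lived guardian of the same kind (Entrez 17210, chr3:95658788-95663176, plus strand). Values of 967.0 and 1212.2 in GM against 932.9 and 1524.0 in 3d DM overlapped, with both the lowest and the highest value in 3d DM. Its log2 difference was -0.14 with an SE of 0.43 (limma adjusted p = 0.898). *Bcl2*, the founding member (Entrez 12043, chr1:106538178-106714274, minus strand), had values of 87.3 and 69.2 in GM against 60.3 and 82.1 in 3d DM. An antisense model, D630008O14Rik, shares 6.09% of its exon bases. The states overlapped, the log2 difference was 0.14 with an SE of 0.54 (limma adjusted p = 0.915), and after the rescaling it was -0.06.

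Both effectors were higher in GM. *Bax*, whose product moves from the cytosol to mitochondria when activated (Entrez 12028, chr7:45461697-45466898, minus strand), had values of 1250.0 and 1144.0 in GM against 536.9 and 781.6 in 3d DM. The GM libraries lay close together and above both 3d DM libraries. Its log2 difference was 0.88 with an SE of 0.43 as deposited (limma adjusted p = 0.163), and 0.68 with an SE of 0.16 after the rescaling (limma adjusted p = 0.0331), a fold of 1.60. A model on the same strand, Gm45808, shares 192 bases or 12.2% of its exons.

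*Bak1*, whose product sits in the mitochondrial membrane (Entrez 12018, chr17:27019810-27029009, minus strand), had values of 1264.8 and 1038.7 in GM against 522.5 and 666.7 in 3d DM. Again all GM values were above all 3d DM values. Its log2 difference was 0.96 with an SE of 0.43 as deposited (limma adjusted p = 0.121) and 0.75 with an SE of 0.16 after the rescaling (limma adjusted p = 0.0251), a fold of 1.68. The antisense gene *Ggnbp1*, which shares 25.5% of its exon bases, had values between 0.00855 and 10.7. With trimmed-mean factors *Bax*, *Bak1* and *Bcl2l2* passed as well. Leaving out 3d DM replicate 1 or 3d DM replicate 2 left no call among the 10 genes under either the deposited or the median-of-ratios scaling, with the log2 difference of *Bax* between 0.61 and 1.15 over all libraries left out and both scalings. Rescaled and without the intensity trend, *Bcl2l2* passed and *Bax* (limma adjusted p = 0.0676) and *Bak1* (limma adjusted p = 0.0539) did not.

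The BH3-only genes passed the threshold under none of the scalings. *Bid*, which links death receptors to mitochondria after cleavage by caspase 8 (Entrez 12122, chr6:120891930-120916853, minus strand), had 709.5 and 732.6 in GM against 486.1 and 493.1 in 3d DM. Its states did not overlap, and its residual SD between the libraries of a state, 0.03 on the log2 scale, was the smallest of the 10 genes. The log2 difference was 0.56 with an SE of 0.44 (limma adjusted p = 0.473), where the SE follows the spread of genes of similar level and not that of *Bid* itself. After the rescaling the values were 604.2 and 740.7 in GM against 618.5 and 445.2 in 3d DM and overlapped. *Bcl2l13*, an antisense neighbour, shares 628 bases or 17.7% of the exons of *Bid*. Its own values were 547.7 and 473.7 in GM against 586.6 and 770.3 in 3d DM, and without strand in the counting their reads cannot be told apart.

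*Bad*, which is held inactive by growth factor signalling (Entrez 12015, chr19:6941861-6951899, plus strand), had 468.0 and 287.0 in GM against 257.2 and 304.7 in 3d DM. Only GM replicate 1 stood apart. The antisense gene *Gpr137*, which shares 20.5% of its exon bases, had 203.0 and 126.5 in GM against 137.3 and 205.1 in 3d DM. For *Bad* the log2 difference was 0.39 with an SE of 0.46 (limma adjusted p = 0.677). *Bcl2l11*, which encodes Bim (Entrez 12125, chr2:128126038-128162547, plus strand), had 177.9 and 91.3 in GM against 93.2 and 105.6 in 3d DM. Here too GM replicate 1 alone was high, and the log2 difference was 0.36 with an SE of 0.51 (limma adjusted p = 0.739). Without that library it was -0.12.

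*Bbc3*, which encodes the p53 target Puma (Entrez 170770, chr7:16308393-16318205, plus strand), had 108.4 and 74.3 in GM against 74.2 and 182.9 in 3d DM. The highest value, in 3d DM replicate 2, set the difference of -0.37 with an SE of 0.51 (limma adjusted p = 0.73), and without that library it was 0.27. After the rescaling the values were 92.3 and 75.1 in GM against 94.4 and 165.1 in 3d DM and no longer overlapped. By the rescaled values 2 genes lay higher in both GM libraries, where 34.1% of all tested genes did, and 3 lay higher in both 3d DM libraries, where 32.9% did.

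**Figure D2:**
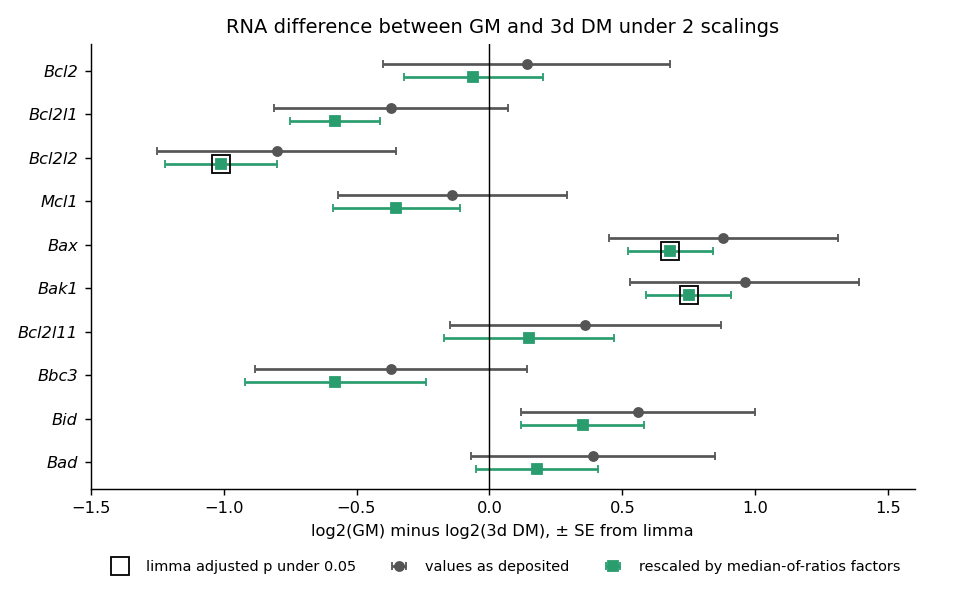
Log2 difference of RNA between GM and 3d DM with its SE from limma (n = 2 libraries a state), for values as deposited (circles) and after median-of-ratios rescaling (squares). Boxes mark a limma adjusted p under 0.05, which Bcl2l2, Bax and Bak1 reached after the rescaling.

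Divided by the length of their exons, merged over all annotated transcripts, the 10 genes spanned a wide range of levels. This length is 3.55 kb for *Bid* and 3.42 kb for *Mcl1*, where the single transcripts used for the peaks have 2189 and 3418 bases. The order, ranges, shares and sums per kb hold for the merged length, and lengths of single transcripts were not tried. Averaged over the 4 libraries, *Bax* was at 588.9 per kb, *Bak1* at 362.8, *Mcl1* at 339.1, *Bid* at 170.5, *Bcl2l1* at 128.9, *Bad* at 128.7, *Bcl2l2* at 86.2, *Bbc3* at 51.8, *Bcl2l11* at 14.6 and *Bcl2* at 8.16. Neighbours in this order overlapped in their ranges over the libraries, except for *Bid* (136.9 to 206.4) below *Mcl1* (272.9 to 445.9), *Bcl2l11* (11.4 to 22.2) below *Bbc3* (34.9 to 86.1) and *Bcl2* (6.58 to 9.53) below *Bcl2l11*. *Mcl1* made up between 55.9% and 66.9% of the summed level per kb of the 4 anti-apoptotic genes, and *Bcl2* between 1.2% and 2.0%.

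Summed per kb, the effectors came to 1318.6 and 1157.4 in GM against 557.7 and 772.9 in 3d DM. The 4 anti-apoptotic genes came to 470.6 and 530.4 in GM against 488.5 and 760.2 in 3d DM. The 4 BH3-only genes came to 456.0 and 364.9 in GM against 284.0 and 357.3 in 3d DM. Both GM sums exceeded both 3d DM sums for the effectors and for the BH3-only genes, in the latter case by 364.9 against 357.3 only, and the anti-apoptotic sums overlapped. After the rescaling the anti-apoptotic sums no longer overlapped, at 400.7 and 536.3 in GM against 621.5 and 686.3 in 3d DM. The effectors then came to 1122.7 and 1170.3 in GM against 709.6 and 697.8 in 3d DM. The BH3-only genes came to 388.3 and 369.0 in GM against 361.3 and 322.5 in 3d DM, so that these sums kept their order. Members did not all follow their sums. Rescaled values of *Mcl1*, the largest part of the anti-apoptotic sum, overlapped, at 823.4 and 1225.7 in GM against 1186.9 and 1375.9 in 3d DM. Those of *Bcl2* overlapped too, and those of *Bcl2l1* and *Bcl2l2* did not. *Bbc3* was higher in 3d DM, against the BH3-only sum, and *Bid*, *Bad* and *Bcl2l11* overlapped. Of single tested genes, 34.1% then lay higher in both GM libraries and 32.9% in both 3d DM libraries.

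A ratio of 2 genes within a library does not depend on the factor by which the library was scaled. The ratios use values not divided by exon length, so only their change between states can be read, not which gene is higher. Per kb, *Bax* was above *Bcl2l1* in both 3d DM libraries, at 340.7 and 495.9 against 127.3 and 164.6. The ratio of *Bax* to *Bcl2l1* was 2.31 and 2.36 in GM against 0.919 and 1.04 in 3d DM, and the ratio of *Bax* to *Bcl2* was 14.3 and 16.5 in GM against 8.91 and 9.52 in 3d DM. Both ratios were higher in each GM library than in each 3d DM library, by 1.26 and 0.74 on the log2 scale. *Bcl2* to *Bcl2l1* was also higher in GM, at 0.162 and 0.143 against 0.103 and 0.109. The ratios of *Bcl2l11* and *Bbc3* to *Mcl1* overlapped. Over the 5 ratios the two-sided exact permutation test gave p = 0.333, the smallest that 2 against 2 libraries allow, for the 3 ratios that did not overlap and p = 0.667 for the other 2, with Benjamini-Hochberg adjusted values of 0.556 and 0.667.

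**Figure D3:**
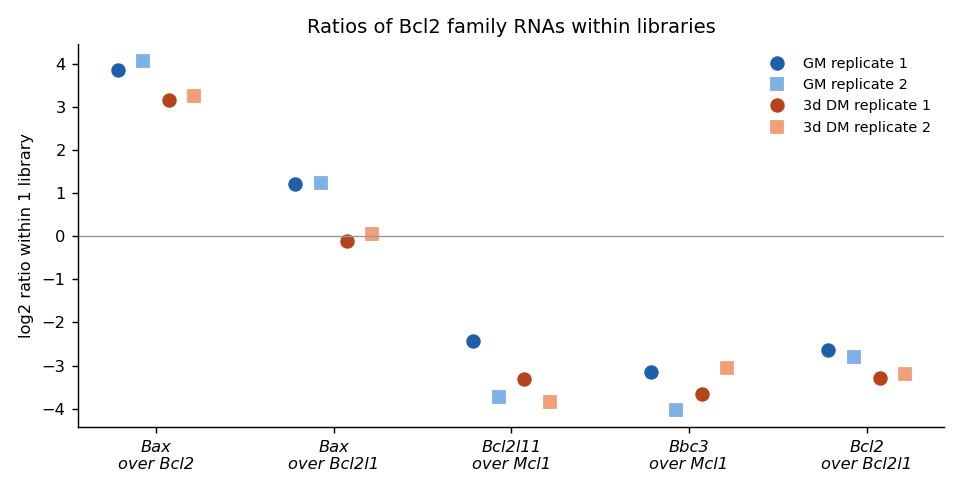
Log2 ratio of 2 RNAs within each library, from values not divided by exon length, for 5 pairs of Bcl2 family genes. Circles mark replicate 1 and squares replicate 2 of each state. Bax over Bcl2l1 lies at 1.21 and 1.24 in GM and at -0.12 and 0.05 in 3d DM.

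Peaks of m6A were found on *Bcl2l1*, *Bcl2l2*, *Mcl1*, *Bak1*, *Bbc3* and *Bid* in all 4 lists, 6 of the 10 genes, where 42.0% of all tested genes had this. Each list held between 23 and 25 lines for the family, a line being 1 peak on 1 transcript. Lines that share a base on the same strand were joined into 14 loci, 8 of which were present in all 4 lists. *Bcl2* was missing from the list of 3d DM replicate 2, and *Bax* from that of 3d DM replicate 1. *Bad* had a peak in 3d DM replicate 2 alone. *Bcl2l11* had a peak in both GM lists and in neither 3d DM list, a pattern that 2.63% of all tested genes had. The reverse, a peak in both 3d DM lists and in no GM list, was seen in 0 of the 10 genes and in 1.72% of all tested genes, and 24.9% of these had no peak in any list. The lists give no read numbers, so a missing peak says that none was called and not that the mark was absent.

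**Figure D4:**
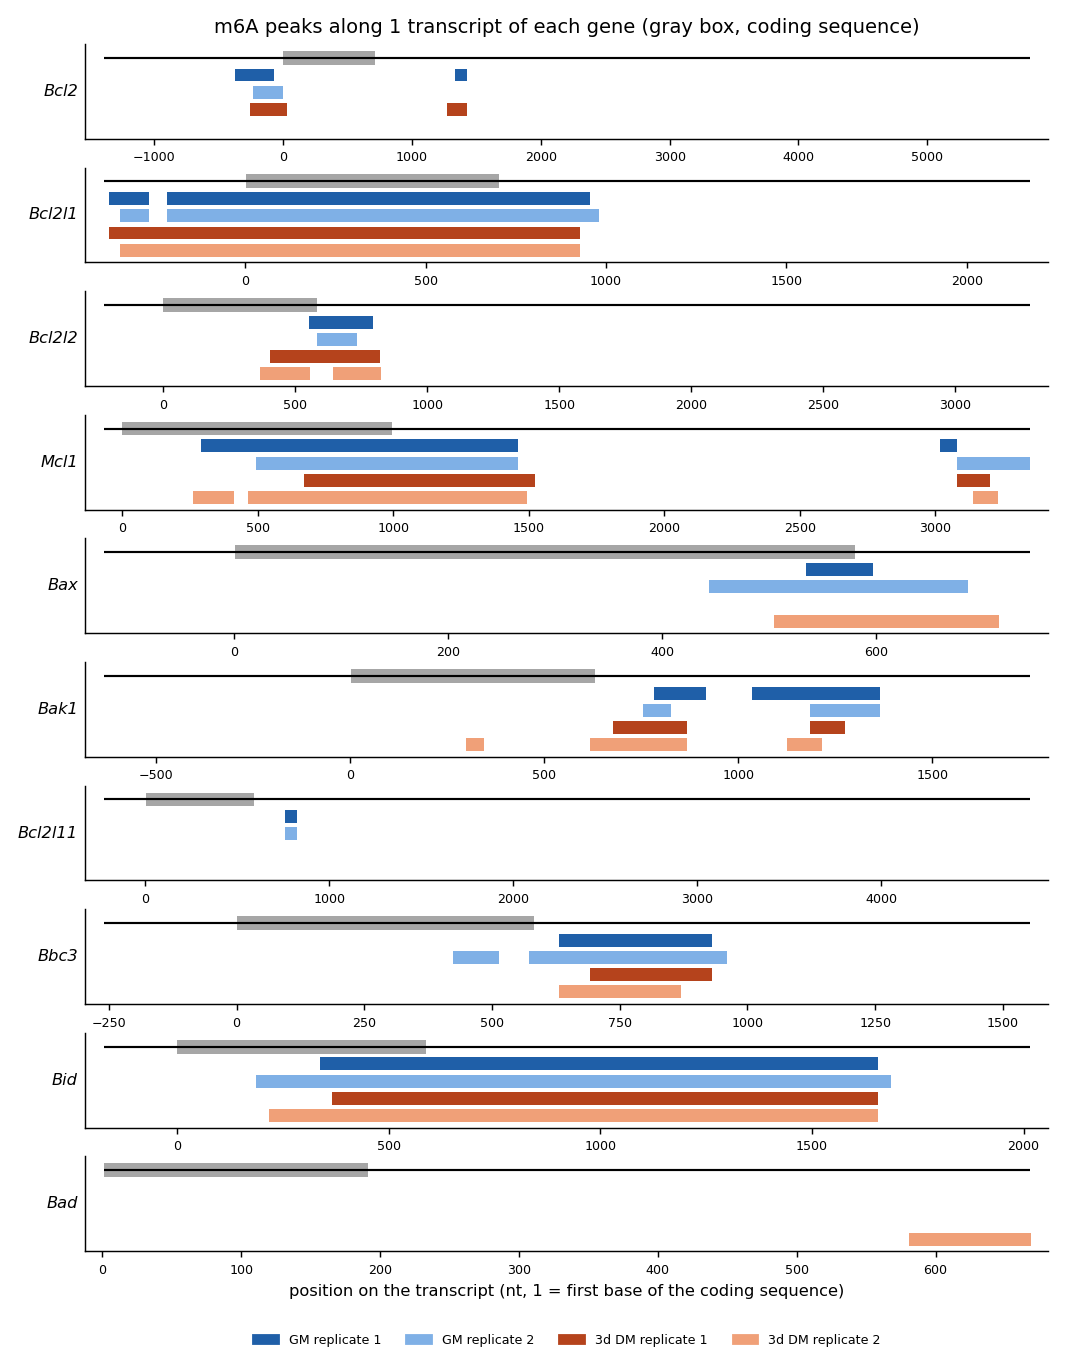
Positions of the m6A peaks of each list along 1 transcript of each Bcl2 family gene, in nucleotides with 1 at the first base of the coding sequence (gray box), each gene on its own scale. The peaks of Bcl2l1, Mcl1 and Bid run across the end of the coding sequence in all 4 lists, those of Bcl2l11 appear in both GM lists only, and that of Bad in 3d DM replicate 2 only.

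The broadest peaks lay on *Bid*, *Bcl2l1* and *Mcl1*. On *Bid* 1289 bases were common to all 4 lists, from position -221 to 1067 relative to the last base of the coding sequence, so they covered 222 coding bases and 1067 bases of the 3′ UTR. The folds of precipitated over input RNA were 4.58 and 5.07 in GM against 4.07 and 4.38 in 3d DM. On *Bcl2l1* the common stretch held all 702 coding bases of the transcript used, with 301 bases of the 5′ UTR and 224 bases of the 3′ UTR. The site shown above lies in its coding sequence, 1 of 5 matches that start with GGAC among 25 DRACH matches of the common stretch. The median folds over the 8 lines of a list were 7.82 and 5.78 in GM against 4.82 and 4.84 in 3d DM. On *Mcl1* 791 common bases reached from position -325 to 465 around the end of the coding sequence, with 21 DRACH matches. The folds there were 4.14 and 4.94 in GM against 3.26 and 2.76 in 3d DM. At these 3 loci both GM folds exceeded both 3d DM folds, where 21.5% of all loci present in all 4 lists did. By percentile among the loci of the same list, *Bcl2l1* and *Mcl1* kept this order. *Bid* did not, at 52.2 and 64.0 in GM against 54.0 and 51.6 in 3d DM. By the largest fold over its lines *Bcl2l1* overlapped, at 16.6 and 6.32 in GM against 7.41 and 5.51 in 3d DM.

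A second locus of *Mcl1*, near the end of the messenger at chr3:95662846-95663176, had folds of 1.50 and 2.65 in GM against 1.69 and 2.15 in 3d DM. The pieces called in the 4 lists had no base in common. The peak of *Bbc3* lay in the 3′ UTR, with 179 bases common to all 4 lists from position 109 to 287 after the coding sequence and 5 GGAC matches among 6 DRACH matches. Its folds were 7.58 and 6.48 in GM against 3.76 and 6.85 in 3d DM, and overlapped. A peak in the coding sequence of *Bbc3* was called in GM replicate 2 alone, with a fold of 3.13.

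On *Bcl2l2* 93 bases of the 3′ UTR, from position 60 to 152 after the coding sequence, were common to all 4 lists. Folds at its own lines were 4.59 and 3.28 in GM against 2.35 and 6.26 in 3d DM, so 3d DM had both the lowest and the highest. In both 3d DM lists the peaks reached further into the coding sequence than in the GM lists. The locus also contained lines of Gm20521 and *Pabpn1*, and was fitted with them, which gave a log2 difference of -0.10 with an SE of 0.42 (limma adjusted p = 0.997).

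Folds were low at the effectors. *Bak1* had 2 loci, mostly in its 3′ UTR. The first, of which 45 bases were common to all 4 lists, had folds of 1.90 and 1.61 in GM against 2.48 and 3.46 in 3d DM, and was the only 1 of the 8 loci whose 3d DM folds both exceeded both GM folds. The second, with 31 common bases, had folds of 2.11 and 2.40 in GM against 1.82 and 1.81 in 3d DM, the opposite order. *Bax* had a peak around the end of its coding sequence, with folds of 1.33 and 1.84 in GM and 2.90 in 3d DM replicate 2. Among all loci of the same list these folds of *Bax* lay at percentiles of 0.258, 5.55 and 23.8. No DRACH match lay in the common stretches of *Bak1* and *Bax*.

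The highest median folds were those of *Bcl2*, the gene with the lowest RNA level per kb. A peak before and at the start of its coding sequence (chr1:106712850-106713255) had folds of 13.1 and 11.0 in GM and of 12.1 in 3d DM replicate 1, at percentiles of 93.2, 90.0 and 93.6 of their lists. Its 164 common bases all lay in the 5′ UTR, from position -239 to -76 relative to the first coding base. The authors' P values there were 3.4e-04, 5.0e-04 and 2.8e-06, larger than the 1.0e-33, 3.2e-26 and 2.0e-23 of *Bid* in the same lists. A further peak in the 3′ UTR had folds of 13.1 in GM replicate 1 and 12.7 in 3d DM replicate 1. The GM peak of *Bcl2l11* spanned 62 bases of the 3′ UTR at chr2:128158500-128158561, with folds of 9.62 and 3.95 and P values of 6.2e-03 and 2.2e-03. The peak of *Bad* had a fold of 2.38.

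**Figure D5:**
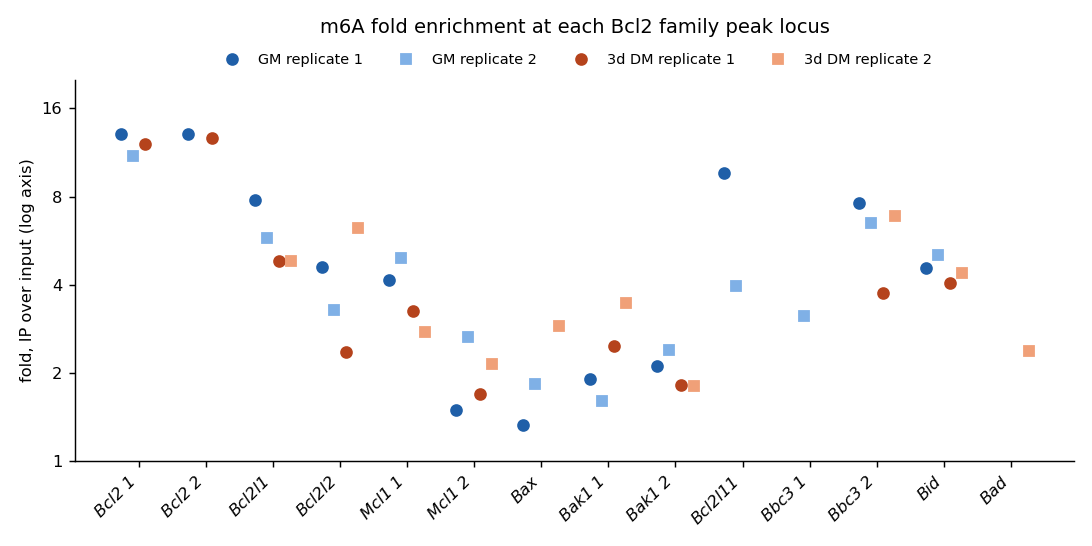
Fold of precipitated over input RNA (log axis, median over the gene's own lines) at the 14 peak loci of the Bcl2 family genes in each list, numbered from the 5′ end where a gene had 2 loci. A missing point means that no peak was called there, and the folds run from 1.33 at Bax in GM replicate 1 to 13.1 at both Bcl2 loci.

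The difference in fold between GM and 3d DM was fitted with limma over the 5976 loci present in all 4 lists. No locus passed an adjusted p of 0.05, so 0% of all loci and 0 of the 8 Bcl2 family loci were called, while 206 loci in all and 1 of the 8 had an unadjusted p under 0.05. That locus was the first of *Bak1*, with a log2 difference, GM minus 3d DM, of -0.74 and an SE of 0.34 (limma adjusted p = 0.997). *Mcl1* had a log2 difference of 0.59 with an SE of 0.40 at its first locus, *Bcl2l1* one of 0.48 with an SE of 0.48, and *Bid* one of 0.19 with an SE of 0.43 (limma adjusted p = 0.997 for each). By the median over lines, 4 of the 8 loci had both GM folds above both 3d DM folds, where 21.5% of all loci did. The reverse order held for 1 of the 8, where 9.34% of all loci had it. The median log2 difference over all loci was 0.11.

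Peaks of any list covered 7038 of the 29647 bases of the 10 transcripts, or 23.7%. Inside them there were 165 DRACH matches, 23.4 per kb, and outside them 396, 17.5 per kb. Over 8051 tested genes with a peak the densities were 22.9 inside and 19.5 outside. The density was higher inside than outside in 9 of the 10 genes, all but *Bax*, and in 70.0% of all these genes. By ratio the largest gap was that of *Bbc3*, at 23.0 per kb inside and 7.49 outside, followed by *Bcl2l11*, at 32.3 and 15.9, whose peak held 2 matches in all.

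Related genes of the same pathway came from 4 lists of 43 genes in all, of which 35 passed the filter on low values. As deposited, 3 of the 35 passed with higher values in GM and 4 with higher values in 3d DM, where 9.96% and 7.01% of all tested genes did. After the rescaling 6 and 5 of the 35 passed, where 11.6% and 11.7% of all tested genes did. Among 7 tested members of the wider Bcl2 family, *Pmaip1* and *Bmf* passed, both BH3-only genes and both higher in 3d DM. *Pmaip1*, which encodes the Mcl1-binding protein Noxa, had 445.0 and 200.7 in GM against 541.2 and 976.6 in 3d DM (log2 difference -1.28, SE 0.45, limma adjusted p = 0.028). *Bmf* had 47.8 and 2.0 in GM against 66.3 and 145.0 in 3d DM (log2 difference -3.02, SE 0.61, limma adjusted p = 1.3e-05). GM replicate 2 stood far below the other 3 libraries, and after the rescaling the adjusted p was 0.0999. *Bcl2l13* passed only after the rescaling, at a log2 difference of -0.61.

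Of 16 genes of the apoptosome, the caspases and the release factors, *Casp8* passed. It had 312.2 and 274.0 in GM against 89.7 and 121.3 in 3d DM (log2 difference 1.48, SE 0.48, limma adjusted p = 0.0161). After the rescaling *Apaf1*, the scaffold of the apoptosome (log2 difference 0.90), *Cycs*, cytochrome c (0.80), and *Casp2* (0.98) were called as well with higher values in GM, and *Dffa*, an inhibitor of the apoptotic nuclease (-0.85), with higher values in 3d DM. Of 4 tested inhibitors of apoptosis, *Birc5* passed, with 1385.6 and 1358.8 in GM against 152.5 and 208.7 in 3d DM (log2 difference 2.94, SE 0.44, limma adjusted p = 1.7e-09). Its product survivin also acts in cell division.

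Of 8 genes of the p53 axis, 3 passed. *Trp53* had 1331.9 and 1596.6 in GM against 516.6 and 816.5 in 3d DM (log2 difference 1.17, SE 0.43, limma adjusted p = 0.0406). *Cdkn1a*, which encodes the cell cycle inhibitor p21, had 3444.5 and 1416.0 in GM against 15897.3 and 19014.1 in 3d DM (log2 difference -2.98, SE 0.40, limma adjusted p = 1.1e-11). *Fas*, a death receptor, had 7.3 and 9.0 in GM against 48.7 and 65.1 in 3d DM (log2 difference -2.65, SE 0.66, limma adjusted p = 7.3e-04). All 3 kept their direction and passed after the rescaling.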

How the data were processed

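MeRIP-seq and matched input RNA-seq of C2C12 cells in GM and 3d DM were analysed from the deposited processed files, with 2 libraries of each kind in each state. Groups came from the labels of the deposit. Per the submitters' processing notes and the paper's methods, reads were aligned to mm10 with HISAT2 (version 2.1.0), genes were counted and handled with edgeR, and peaks were called with exomePeak in each sample. Per the paper's methods, precipitated and input libraries were made with a stranded kit. Counter, strand setting of the counting and library depth are not given in the sources used here. The deposited expression table holds a normalized signal, called TMM by the authors. Its columns sum to nearly equal totals. Low values recurred in pairs within a state (47.4% of genes in GM, 55.0% in 3d DM) and hardly between states (0.461%), so a library's value depends in part on its replicate. Reads could not be recovered, the depth is unknown, and no counting error is given. The peak lists give the authors' p-values and, as a ratio, the fold of precipitated over input RNA. No column of another sample was present (0).

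The statistical test was limma (3.58.1, run in R 4.3.3) with its trend option, applied to log2 of the value plus 1. It covered 11406 genes that reached 2 cpm of a column's sum in 2 or more libraries, p-values were adjusted by Benjamini-Hochberg, and 0.05 was the threshold. Log2 fold changes of low genes are understated on this scale. Peak lines were joined into loci where they share at least 1 base, and log2 folds (median over lines) were tested likewise. Both fits were tested on simulated data with independent noise and planted changes larger than any difference given for the 10 genes. How smaller changes or linked replicates would fare was not tested. Labels do not say whether replicates were separate cultures, so p-values rest on the spread between these samples, which may be technical. As deposited, the SE of each of the 10 genes followed the spread of genes of similar level more than its own. Their residual SDs ran from 0.03 (*Bid*) to 0.7 (*Bbc3*) on the log2 scale, against SEs of 0.43 to 0.54. Alternatives were other filters, pseudocounts of 0.1 and 4, median-of-ratios and trimmed-mean (30% and 5%) rescaling, the replicate block, no trend, stricter peaks, other joining and each library left out. Rescaling combined with another choice was added after seeing the data. The 10 genes and all lists were chosen with earlier results of these data known. Genes named are the 10, related-list genes that passed, state checks and genes with overlapping exons, with *Cd68*, *Pabpn1*, *Tnfrsf10b* and *Vdac1* added after their values were seen. Symbols came from RefSeq by Entrez ID. Transcripts were the APPRIS principal one, then that with most lines, then the longest, and the one used for *Bad* has an incomplete coding sequence. Python 3.11.15, numpy 2.4.6, pandas 2.3.3, scipy 1.17.1 and matplotlib 3.10.9 were used. Protein sequences were not used here.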

Additional observations from a re-analysis of the deposited data

How the results depend on the processing

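Of the 10 genes 0 were called as deposited, against 3 with median-of-ratios or trimmed-mean rescaling, 1 with median-of-ratios rescaling without trend, 4 with it and the replicate block, and 0 to 5 with a library left out under either scaling, the gains over 3 being *Bcl2l1* and *Mcl1*. The replicate block alone left 0 called. Replicate numbers share no stated batch (correlation of deviations 0.29 for RNA and 0.122 for m6A). All tested genes called numbered 1936, 154 without a filter on low values, 1298 with the replicate block, 3604 with it after rescaling, and 145 to 5052 with a library left out. Rescaling moved the share of calls higher in GM from 58.7% to 49.7%. *Bcl2* reversed to -0.06 with median-of-ratios rescaling (also without trend or with the block) and to -0.04 with trimmed-mean rescaling. With a library left out, log2 differences ran from -0.11 to 0.36 for *Bcl2*, -0.63 to 0.21 for *Mcl1*, -0.20 to 0.84 for *Bcl2l11*, -1.02 to 0.27 for *Bbc3* and -0.05 to 0.74 for *Bad*, and the ratios to *Mcl1* from -0.14 to 1.14 for *Bcl2l11* and -0.67 to 0.20 for *Bbc3*. The cause was not tested. By log2 difference *Bax*, *Bak1* and *Bid* (0.11 to 0.59) stayed higher in GM, and *Bcl2l1* and *Bcl2l2* higher in 3d DM, under all 18 alternatives. Genes with a peak in all 4 lists numbered 6, or 3 at a fold of at least 4. At the *Bcl2l2* locus the m6A difference reversed to 0.24 with the largest fold over lines and ran from -0.55 to 0.34 with a list left out. At the second *Mcl1* locus it reversed to -0.05 with centred lists and ran from -0.35 to 0.48, and it gave no value under the stricter joining. With 2 libraries a state, leaving 1 out leaves 1 residual degree of freedom, and the lone sample is assumed to vary like the other state.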

Other observations

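Of the 35 tested genes of the related lists, 11 had an m6A peak in all 4 lists (31.4%), where 42.0% of all tested genes did, and 12 had none in any, where 24.9% did. *Tnfrsf10b*, a death receptor gene of the p53 axis, had the highest median folds among them, 15.8 and 32.1 in GM against 67.7 and 17.5 in 3d DM, and was chosen here after its values were seen. Its RNA values were 312.1 and 349.2 in GM against 184.8 and 285.8 in 3d DM (limma adjusted p = 0.543). Among the related genes that passed the RNA test under at least 1 scaling, *Pmaip1*, *Bmf*, *Apaf1*, *Casp2* and *Fas* had no peak in any list. *Bcl2l13*, *Cycs*, *Dffa* and *Trp53* had a peak in all 4 lists, and *Casp8*, *Birc5* and *Cdkn1a* in 3. For *Trp53* the median folds were 3.81 and 2.12 in GM against 3.82 and 8.27 in 3d DM. *Vdac1*, which encodes a channel of the outer mitochondrial membrane, was the only 1 of the 35 with a peak in both 3d DM lists and in no GM list, with median folds of 1.22 and 1.49. It too was chosen after its values were seen, and 1.72% of all tested genes had this pattern.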
